A study of Arabidopsis thaliana with 9 samples.

Results

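The genes of starch synthesis and starch degradation were followed in dark-grown Arabidopsis thaliana seedlings aged 3 days. The set was given by locus identifiers and held 30 of the 33655 features of the count table: 13 genes of starch synthesis, 16 genes of starch degradation and QQS. All 30 were present in the table, and their identifiers carry these gene names or synonyms in the TAIR10.1 gene table. RNA-seq libraries came from spaQ, cop1-4 and wild type Col-0 seedlings, with 3 libraries for each genotype, and both mutants were in the Col-0 background. The name spaQ is commonly used for plants mutated in SPA1, SPA2, SPA3 and SPA4, and cop1-4 for a weak allele of COP1, but the alleles behind spaQ are not given in the labels. Seeds of all genotypes shared a 3-day dark stratification at 4 °C, 3 h of white light, 21 h of darkness, a far-red treatment and 2 further days of darkness. Whether replicates were sown separately is not given, so a p-value compares a difference with library-to-library spread alone, and that spread may be technical.

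Starch is made in plastids from glucose phosphates. Phosphoglucose isomerase and phosphoglucomutase supply glucose 1-phosphate, ADP-glucose pyrophosphorylase turns it into ADP-glucose, and synthases, branching enzymes and isoamylase build the granule. Breakdown begins when dikinases phosphorylate the granule surface. Phosphatases, beta-amylases, debranching enzymes, disproportionating enzymes and phosphorylases then act, and maltose and glucose are the main sugars released. In etiolated seedlings starch is known mainly from the statolith amyloplasts of the root cap and the shoot endodermis, whereas in leaves the same enzymes run a daily cycle. COP1 and SPA proteins form a ubiquitin ligase complex that restrains light responses in darkness.

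Between 22482588 and 38770474 reads were counted per library. Levels are given as CPM, reads of a gene scaled to the size of the library, with TMM-adjusted totals. The dark-typical genes PORA, PIL1 and IAA19 were each called lower in both mutants than in Col-0, though unequally. PIL1 averaged 31.8 ± 1.17 CPM in spaQ, 11.3 ± 1.27 CPM in cop1-4 and 54.5 ± 1.48 CPM in Col-0 (SD, n = 3 each), whereas PORA, which makes up most of the sum in Col-0, averaged 8.91 ± 2.27 CPM in spaQ, 20.4 ± 2.82 CPM in cop1-4 and 813 ± 38.8 CPM in Col-0. Together the 3 genes summed to 41.0 to 46.6 CPM in spaQ, 35.8 to 41.3 CPM in cop1-4 and 1005 to 1057 CPM in Col-0, and the photosynthesis genes RBCS1A, RCA and LHCB3 were called higher in both mutants. COP1 transcripts averaged 79.2 ± 4.06 CPM in spaQ, 31.5 ± 3.61 CPM in cop1-4 and 31.4 ± 3.00 CPM in Col-0 (SD, n = 3 each), and no SPA locus was called lower in spaQ than in Col-0. These counts do not check the labels, because a point mutation or an insertion can leave a counted transcript. Among the 30 starch genes, Col-0 replicate 2 was the highest Col-0 library for 24 and cop1-4 replicate 1 the highest cop1-4 library for 20, against 32.4% and 39.7% of all 20779 genes tested. Values were therefore also computed without these libraries. In whole seedlings, fewer cells of a type and less RNA per cell cannot be told apart.

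In both mutants most starch genes stood above the wild type. All 30 genes passed the filter on low counts. In spaQ against Col-0, 23 of 30 were called higher and 3 lower at an adjusted p below 0.05 in edgeR's quasi-likelihood test, where 71.6% of all genes tested were called (35.5% higher and 36.1% lower). In cop1-4 against Col-0, 25 of 30 were called higher and 3 lower, where 62.1% of all genes were called (31.8% higher and 30.3% lower). Both comparisons use the same Col-0 libraries. Of the 13 synthesis genes, 12 were called higher and 1 lower in each mutant. Of the 16 degradation genes, 10 were called higher and 2 lower in spaQ, and 13 higher and 1 lower in cop1-4. The share called in either direction, 86.7% in spaQ and 93.3% in cop1-4, was above the background. In both mutants the share called higher was above the background and the share called lower was below it. The libraries of spaQ and Col-0 did not overlap for 26 of the 30 genes, beside 75.4% of all genes, and those of cop1-4 and Col-0 for 27, beside 65.7%. The median log2 fold change of the 13 synthesis genes was 1.57 in spaQ and 1.16 in cop1-4, that of the 16 degradation genes 0.86 in spaQ and 0.70 in cop1-4, and that of all genes -0.02 in spaQ and 0.01 in cop1-4. Scaling by library totals in place of TMM moved the median of all genes to -0.39 in spaQ and -0.31 in cop1-4, and of the genes called 29.9% were then higher in spaQ (49.6% with TMM) and 28.5% in cop1-4 (51.2% with TMM). Fold changes are therefore relative to the median gene.

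**Figure D1:**
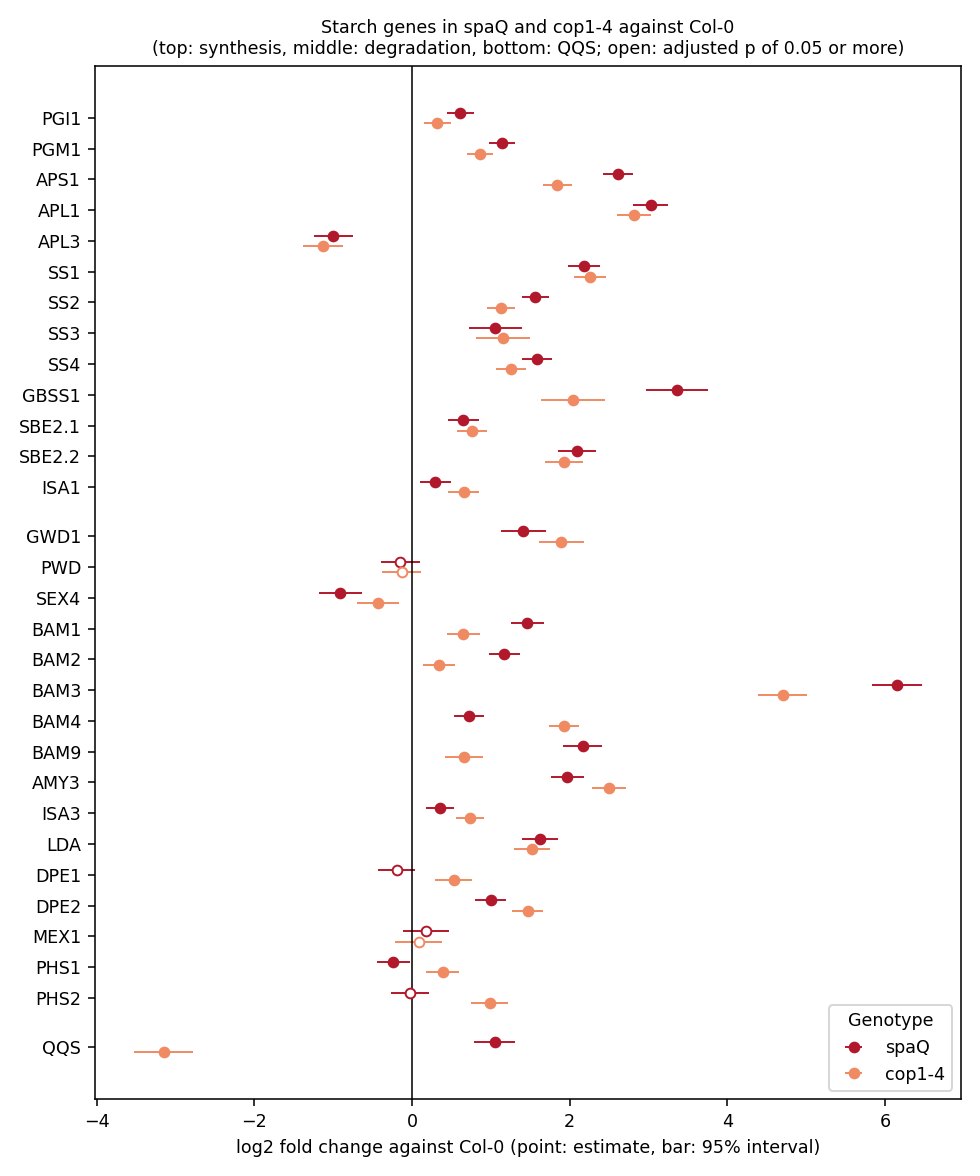
Log2 fold change of each of the 30 genes (rows) in spaQ and cop1-4 against Col-0, with 95% intervals as bars and open symbols for genes that were not called. BAM3 lies farthest to the right in both mutants, and QQS lies at 1.05 in spaQ and at -3.15 in cop1-4. APL3 and SEX4, called in both mutants, lie left of 0 in both, as do the open symbols of PWD.

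The stretches of DNA just before the genes are shown for a few chosen genes, not for all that changed. Each is the 250 bases before the annotated gene start, read 5′ to 3′ on the strand of the gene from the RefSeq assembly TAIR10.1, with matches in capitals. Searched on both strands were the G-box CACGTG, which is bound by HY5 and PIF factors, the evening element AAAATATCT, the CCA1-binding site AAAAATCT and the I-box GATAAG, none of which contains another. PHS1 (chr3:11252557-11252806, plus strand), which was called in opposite directions in the mutants, had 3 G-boxes and an I-box. DPE1 (chr5:25928880-25929129, minus strand) had 2 G-boxes and BAM9 (chr5:6225706-6225955, plus strand) had 1. BAM3 (chr4:9607403-9607652, minus strand), which had the largest fold changes, and QQS (chr3:12348797-12349046, plus strand) held none of the 4 motifs in this window.
PHS1: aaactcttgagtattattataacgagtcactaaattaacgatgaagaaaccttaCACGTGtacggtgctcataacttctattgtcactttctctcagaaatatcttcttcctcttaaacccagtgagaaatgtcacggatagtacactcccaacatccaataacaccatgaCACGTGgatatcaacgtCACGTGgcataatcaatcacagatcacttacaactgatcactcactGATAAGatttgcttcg
DPE1: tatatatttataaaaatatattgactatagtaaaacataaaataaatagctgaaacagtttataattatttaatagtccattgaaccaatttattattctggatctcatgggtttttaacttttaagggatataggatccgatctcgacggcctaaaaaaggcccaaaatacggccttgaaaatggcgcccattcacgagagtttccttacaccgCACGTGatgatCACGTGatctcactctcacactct
BAM9: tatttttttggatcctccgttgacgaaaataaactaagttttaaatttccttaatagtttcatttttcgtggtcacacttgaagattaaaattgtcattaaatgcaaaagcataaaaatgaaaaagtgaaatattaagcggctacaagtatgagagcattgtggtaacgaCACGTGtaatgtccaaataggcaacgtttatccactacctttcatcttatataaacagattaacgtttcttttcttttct
BAM3: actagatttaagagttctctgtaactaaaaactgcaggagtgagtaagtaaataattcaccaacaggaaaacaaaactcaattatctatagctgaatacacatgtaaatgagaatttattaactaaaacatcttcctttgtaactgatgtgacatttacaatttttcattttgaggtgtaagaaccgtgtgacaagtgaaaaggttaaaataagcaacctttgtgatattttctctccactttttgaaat
QQS: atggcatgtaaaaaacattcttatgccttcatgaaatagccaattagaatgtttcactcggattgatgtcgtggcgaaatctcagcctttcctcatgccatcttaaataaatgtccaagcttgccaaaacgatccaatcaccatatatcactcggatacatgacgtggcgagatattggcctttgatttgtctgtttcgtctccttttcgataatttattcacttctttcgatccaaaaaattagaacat
A G-box stood in 5 of 13 synthesis windows (PGI1, SS1, SS3, SS4 and SBE2.1) and in 5 of 16 degradation windows (BAM2, BAM9, DPE1, PHS1 and PHS2). The windows of all 20271 tested protein-coding genes held it in 7.42% of cases. The evening element was found before PGM1, PWD and ISA3 (2.44% of tested genes), the CCA1-binding site before SBE2.2, ISA1 and DPE2 (6.75%), and the I-box before SS2, BAM2, LDA and PHS1 (12.3%). Like those of BAM3 and QQS, the windows of APS1, APL1, APL3, GBSS1, GWD1, SEX4, BAM1, BAM4, AMY3 and MEX1 held none of the motifs. The windows of SS2, SS3, SS4, SEX4, LDA, DPE2, MEX1 and PHS2 overlap a neighbouring gene. A match is a string of letters, and no binding was measured.

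Both genes at the entry of the pathway were called higher in both mutants. PGI1 (AT4G24620), the plastid phosphoglucose isomerase, reached 158 ± 2.02 CPM in spaQ and 129 ± 10.9 CPM in cop1-4, against 103 ± 4.04 CPM in Col-0 (SD, n = 3 each). The log2 fold change was 0.61 in spaQ and 0.32 in cop1-4, and the cop1-4 call was lost with library totals (0.0049). PGM1 (AT5G51820), the plastid phosphoglucomutase without which leaves are starch-free, stood at 98.7 ± 2.08 CPM in spaQ, 81.4 ± 6.17 CPM in cop1-4 and 44.8 ± 2.18 CPM in Col-0. Its log2 fold changes were 1.14 in spaQ and 0.86 in cop1-4. For both genes the libraries of each mutant lay above all Col-0 libraries.

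ADP-glucose pyrophosphorylase, the enzyme at which starch synthesis is mainly regulated, had the large subunit genes APL1 and APL3 moving in opposite directions. APS1 (AT5G48300), its catalytic small subunit, had 269, 300 and 286 CPM in the spaQ libraries, 183, 165 and 152 CPM in cop1-4 and 46.5, 47.5 and 45.3 CPM in Col-0. The 3 genotypes did not overlap, and APS1 rose 6.13-fold in spaQ and 3.59-fold in cop1-4. APL1 (AT5G19220), the large subunit typical of leaves, had 212, 247 and 213 CPM in spaQ, 204, 190 and 184 CPM in cop1-4 and 27.2, 30.7 and 24.5 CPM in Col-0. Its rise was 8.15-fold in spaQ (log2 fold change 3.03, SE 0.10, edgeR adjusted p = 6.47e-13) and 7.03-fold in cop1-4 (2.81, SE 0.10, edgeR adjusted p = 2.53e-12). An antisense lncRNA gene covers 34.8% of the APL1 exons, and without strand information their reads cannot be separated. The lncRNA gene was counted with 766 reads over all libraries, and APL1 with 19903 in spaQ, 15129 in cop1-4 and 2835 in Col-0. APL3 (AT4G39210), a large subunit better known from sugar-fed and non-photosynthetic tissue, went the other way. It had 7.27, 5.73 and 5.51 CPM in spaQ, 5.67, 5.54 and 5.72 CPM in cop1-4 and 12.9, 11.9 and 12.1 CPM in Col-0. APL3 was the only synthesis gene called lower, by 1.00 in spaQ and 1.12 in cop1-4 on the log2 scale, and the level in each mutant library was below every Col-0 library. Outside the set, the large subunit gene APL2 averaged 6.82 CPM in spaQ, 6.77 CPM in cop1-4 and 8.22 CPM in Col-0. APL4, a further one, averaged 2.31 CPM in spaQ, 2.76 CPM in cop1-4 and 4.91 CPM in Col-0.

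All synthase genes rose in both mutants. SS1 (AT5G24300), which makes the short chains of amylopectin, stood at 167 ± 0.790 CPM in spaQ, 176 ± 22.6 CPM in cop1-4 and 36.8 ± 2.43 CPM in Col-0 (SD, n = 3 each), with log2 fold changes of 2.18 in spaQ and 2.26 in cop1-4. SS2 (AT3G01180), which extends them, rose by 1.57 in spaQ and 1.13 in cop1-4. SS3 (AT1G11720), which works on longer chains, rose by 1.06 in spaQ and 1.16 in cop1-4, and SS4 (AT4G18240), needed to start granules, by 1.59 in spaQ and 1.26 in cop1-4. GBSS1 (AT1G32900), the granule-bound synthase that makes amylose, had 30.9, 39.5 and 35.4 CPM in spaQ, 18.1, 12.4 and 11.4 CPM in cop1-4 and 3.24, 4.32 and 2.70 CPM in Col-0. All spaQ libraries lay above all cop1-4 libraries, which lay above all Col-0 libraries. The rise of GBSS1 was 10.3-fold in spaQ (log2 3.37, SE 0.18) and 4.12-fold in cop1-4 (log2 2.04, SE 0.19). Among the synthase genes, SS3 and GBSS1 varied most for their mean between the libraries within cop1-4 and within Col-0. In cop1-4 replicate 1 SS3 stood at 88.0 CPM against 58.5 and 53.0 CPM in the other cop1-4 libraries.

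Both genes of branching enzymes, which add the branch points of amylopectin, rose in both mutants. SBE2.2 (AT5G03650) rose by 2.09 in spaQ and 1.93 in cop1-4 on the log2 scale, and SBE2.1 (AT2G36390) by 0.65 in spaQ and 0.76 in cop1-4. SBE2.2 had 181 ± 2.04 CPM in spaQ, 162 ± 27.9 CPM in cop1-4 and 42.5 ± 4.22 CPM in Col-0 (SD, n = 3 each). ISA1 (AT2G39930), the isoamylase that trims glucan into a form able to crystallise, rose by 0.66 in cop1-4. In spaQ its value was 0.29 with TMM and -0.08 with library totals, where it was not called, and the call was also lost without Col-0 replicate 3 (0.24). An antisense lncRNA gene covers 22.7% of the ISA1 exons and was counted with 232 reads over all libraries.

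The genes that act on the granule surface did not move as a group. GWD1 (AT1G10760), the glucan water dikinase of the starch excess mutant sex1, had 204, 231 and 227 CPM in spaQ, 340, 314 and 270 CPM in cop1-4 and 77.6, 103 and 68.1 CPM in Col-0. It rose by 1.41 in spaQ and 1.89 in cop1-4, without overlap between any of the genotypes. PWD (AT5G26570), the dikinase that acts after GWD1, was not called in either mutant, with log2 fold changes of -0.15 in spaQ (95% interval -0.39 to 0.10) and -0.13 in cop1-4 (-0.38 to 0.12). With library totals PWD was called lower in spaQ (-0.52) and in cop1-4 (-0.44), and without Col-0 replicate 2 its value was 0.01 in spaQ and 0.03 in cop1-4. SEX4 (AT3G52180), the phosphatase that removes these phosphates again, had 4.97, 4.37 and 5.27 CPM in spaQ, 6.46, 6.79 and 7.16 CPM in cop1-4 and 8.26, 10.4 and 8.73 CPM in Col-0. It fell by 0.91 in spaQ and by 0.43 in cop1-4, where it was not called without both Col-0 replicate 2 and cop1-4 replicate 1 (-0.29). SEX4 was the only degradation gene called lower in both mutants.

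The 5 beta-amylase genes all rose in both mutants, to very different extents. BAM3 (AT4G17090), the main beta-amylase of leaf starch breakdown at night, had 105, 128 and 113 CPM in spaQ, 49.0, 39.7 and 37.8 CPM in cop1-4 and 1.44, 1.96 and 1.49 CPM in Col-0. The libraries of the 3 genotypes were far apart. The rise was 71.1-fold in spaQ (log2 6.15, SE 0.15, edgeR adjusted p = 3.06e-14) and 26.0-fold in cop1-4 (log2 4.70, SE 0.15, edgeR adjusted p = 5.77e-13). Of 20779 genes tested, 100 had a larger log2 fold change in spaQ and 127 in cop1-4. An lncRNA gene on the other strand covers 24.6% of the BAM3 exons and had no reads in the table. BAM9 (AT5G18670), a protein without the catalytic residues of an amylase, had 360, 350 and 352 CPM in spaQ, 155, 107 and 112 CPM in cop1-4 and 79.0, 81.4 and 76.6 CPM in Col-0. BAM9 rose 4.48-fold in spaQ and 1.58-fold in cop1-4.

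BAM1 (AT3G23920), a redox-regulated plastid enzyme known from guard cells and from stress, reached 190 ± 2.49 CPM in spaQ, 108 ± 7.82 CPM in cop1-4 and 68.9 ± 9.31 CPM in Col-0 (SD, n = 3 each). BAM2 (AT4G00490), a further plastid beta-amylase, rose by 1.17 in spaQ and by 0.35 in cop1-4, where it was not called with library totals (0.03). BAM4 (AT5G55700), a plastid protein that lacks amylase activity but promotes starch breakdown, had the reverse order of the mutants, with 29.2, 34.9 and 32.7 CPM in spaQ, 70.9, 76.3 and 75.7 CPM in cop1-4 and 18.7, 21.7 and 18.3 CPM in Col-0. Per kb of exon, BAM3 took 14.9% to 17.8% of the summed level of the 5 genes in spaQ, 11.2% to 12.2% in cop1-4 and 0.839% to 1.06% in Col-0. BAM4 took 4.31% to 5.05% in spaQ, 18.4% to 23.8% in cop1-4 and 10.8% to 12.2% in Col-0. BAM9 held the largest share in all 9 libraries.

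**Figure D2:**
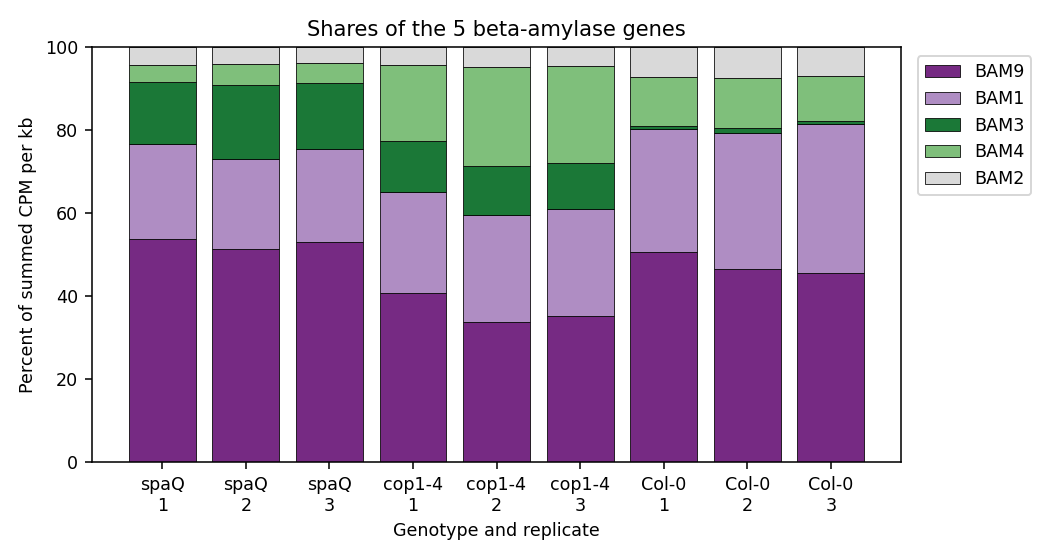
Share of each of the 5 beta-amylase genes in their summed CPM per kb of exon (percent, vertical axis) in each library (bars, 3 per genotype). The BAM3 segment is a thin band of about 1% in Col-0 and a clear segment in both mutants, while the BAM4 segment is widest in cop1-4.

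BAM1 and AMY3 (AT1G69830) are a pair of enzymes known to degrade guard cell starch. Guard cell markers did not all move in the same direction. Of the markers FAMA, MYB60, EPF1 and KAT1, the first 3 were called higher in both mutants and KAT1 lower, and their summed level was 41.8 to 44.6 CPM in spaQ, 29.7 to 33.4 CPM in cop1-4 and 34.6 to 40.2 CPM in Col-0. KAT1 made up most of this sum in Col-0, with 12.1 CPM in spaQ, 8.79 CPM in cop1-4 and 27.3 CPM in Col-0. FAMA averaged 9.56 CPM in spaQ, 7.70 CPM in cop1-4 and 2.16 CPM in Col-0. Markers of statolith-bearing tissues (SMB, BRN1, BRN2, SCR, SHR and SGR5) summed to 119 to 127 CPM in spaQ, 103 to 112 CPM in cop1-4 and 97.7 to 108 CPM in Col-0. SCR made up most of this sum in each genotype, with 90.3 CPM in spaQ, 64.1 CPM in cop1-4 and 58.1 CPM in Col-0. SHR was called lower and BRN2 higher in both mutants, SCR higher in spaQ and SGR5 higher in cop1-4, while SMB and BRN1 were called in neither. Seed storage genes (CRU1, CRU2 and CRU3) summed to 129 to 420 CPM in spaQ, 18.5 to 34.0 CPM in cop1-4 and 380 to 417 CPM in Col-0. No marker was at 0 in any genotype. The part of these cell types and of seed reserves in the starch gene values was not tested.

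Among the enzymes that cut and rearrange the released glucans, AMY3, ISA3, DPE1 and DPE2 were called lower in spaQ than in cop1-4 and LDA was not called between them. AMY3, the plastid alpha-amylase, had 84.7, 103 and 91.7 CPM in spaQ, 145, 136 and 121 CPM in cop1-4 and 22.2, 25.8 and 23.1 CPM in Col-0, a rise of 3.92-fold in spaQ and 5.65-fold in cop1-4. LDA (AT5G04360), the limit dextrinase, rose by 1.63 in spaQ and 1.52 in cop1-4. ISA3 (AT4G09020), the debranching isoamylase of breakdown, rose by 0.36 in spaQ and 0.74 in cop1-4, but its spaQ value was -0.01 with library totals. DPE2 (AT2G40840), the cytosolic enzyme that metabolises maltose, rose by 1.00 in spaQ and 1.47 in cop1-4. Its plastid counterpart DPE1 (AT5G64860) rose by 0.53 in cop1-4 and had a value of -0.20 in spaQ (95% interval -0.43 to 0.04, not called). With library totals the DPE1 call in cop1-4 was lost (0.22) and DPE1 was called lower in spaQ (-0.57), as it was without Col-0 replicate 3 (-0.31).

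MEX1 (AT5G17520), the maltose exporter of the plastid envelope, was not called in any comparison. It stood at 6.31 ± 0.645 CPM in spaQ, 5.87 ± 0.589 CPM in cop1-4 and 5.54 ± 0.719 CPM in Col-0 (SD, n = 3 each), with 95% intervals of -0.11 to 0.47 in spaQ and -0.21 to 0.39 in cop1-4, and both values turned negative with library totals (-0.19 in spaQ and -0.23 in cop1-4). PHS2 (AT3G46970), the cytosolic phosphorylase, had 27.7, 31.0 and 30.7 CPM in spaQ, 58.2, 69.9 and 52.1 CPM in cop1-4 and 29.5, 34.4 and 27.0 CPM in Col-0. It rose by 0.99 in cop1-4, where the libraries stood apart from Col-0, while the spaQ libraries lay among those of Col-0. The spaQ value was -0.02 (95% interval -0.26 to 0.22), with signs that turned without Col-0 replicate 2 (0.08) or spaQ replicate 1 (0.03), and it was called lower with library totals (-0.40). PHS1 (AT3G29320), the plastid phosphorylase, had 47.5, 47.9 and 47.5 CPM in spaQ, 78.5, 77.8 and 64.2 CPM in cop1-4 and 53.5, 64.3 and 50.9 CPM in Col-0. It was called higher in cop1-4 (0.39), where replicate 3 fell just under the highest Col-0 library, and lower in spaQ (-0.24, edgeR adjusted p = 0.0411). Leaving out each library in turn gave spaQ values of -0.30 to -0.13 and ended that call without Col-0 replicate 2 (-0.13), cop1-4 replicate 2 (-0.24) or spaQ replicate 1 (-0.23), 2 (-0.24) or 3 (-0.23). The PHS1 call in cop1-4 was lost with library totals (0.07), where the spaQ value was -0.61.

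**Figure D3:**
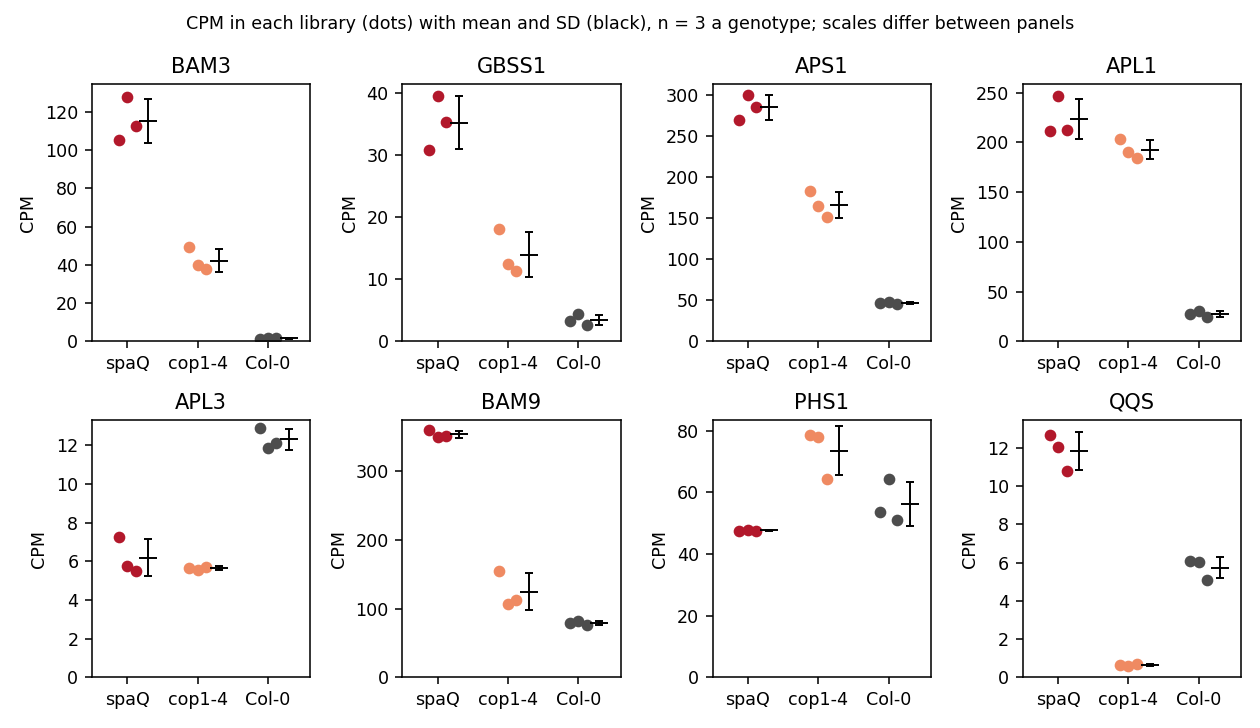
CPM of 8 genes in each library (dots), with mean and SD beside them in black (n = 3 per genotype, linear axes from 0 with different scales). The 3 genotypes stand apart for BAM3, GBSS1, APS1, BAM9 and QQS, and for APL1 the mutants lie close together without overlap, far above Col-0. APL3 is lower in both mutants than in Col-0, and PHS1 is lowest in spaQ.

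The mutants were also set directly against each other, a comparison that takes its spread from all 9 libraries but its values from the mutants alone. In spaQ against cop1-4, 11 of the 30 genes were called higher and 10 lower, where 47.5% of all genes were called (24.0% higher and 23.5% lower). At 2-fold or more, 4 were higher (QQS, BAM9, BAM3 and GBSS1) and 2 lower (BAM4 and PHS2), where 9.88% of all genes passed (4.04% higher and 5.85% lower). Of 13 synthesis genes 6 were higher (APS1, GBSS1, SS2, SS4, PGI1 and PGM1), ISA1 was lower and 6 were not called. Of 16 degradation genes 4 were higher and 9 lower. The median log2 fold change was 0.21 for synthesis, -0.42 for degradation and -0.01 for all genes.

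The degradation genes higher in spaQ than in cop1-4 were all beta-amylase genes: BAM9 (1.503, SE 0.12), BAM3 (1.45, SE 0.11), BAM2 (0.82, SE 0.09) and BAM1 (0.81, SE 0.10). The 9 that were lower were BAM4 (-1.201, SE 0.09), PHS2 (-1.01, SE 0.11), DPE1 (-0.73), PHS1 (-0.63), AMY3 (-0.53), SEX4 (-0.48), GWD1 (-0.48), DPE2 (-0.47) and ISA3 (-0.38). For each of these 13 genes the libraries of spaQ and cop1-4 did not overlap, which held for 22 of the 30 genes and for 57.3% of all genes. PWD (95% interval -0.26 to 0.23), LDA (-0.11 to 0.33) and MEX1 (-0.21 to 0.39) were not called. Among the synthesis genes that were not called, APL1 had an interval of 0.01 to 0.41 and SBE2.2 one of -0.07 to 0.39. Without cop1-4 replicate 1 both were called higher (APL1 0.26 and SBE2.2 0.31), and APL1 also with DESeq2 (0.23), with the 6 libraries of the mutants alone (0.21) and without Col-0 replicate 2 (0.21). The photosynthesis marker LHCB3 was lower in spaQ than in cop1-4 (-1.30) and RBCS1A higher (0.38), and their part in these differences was not tested.

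**Figure D4:**
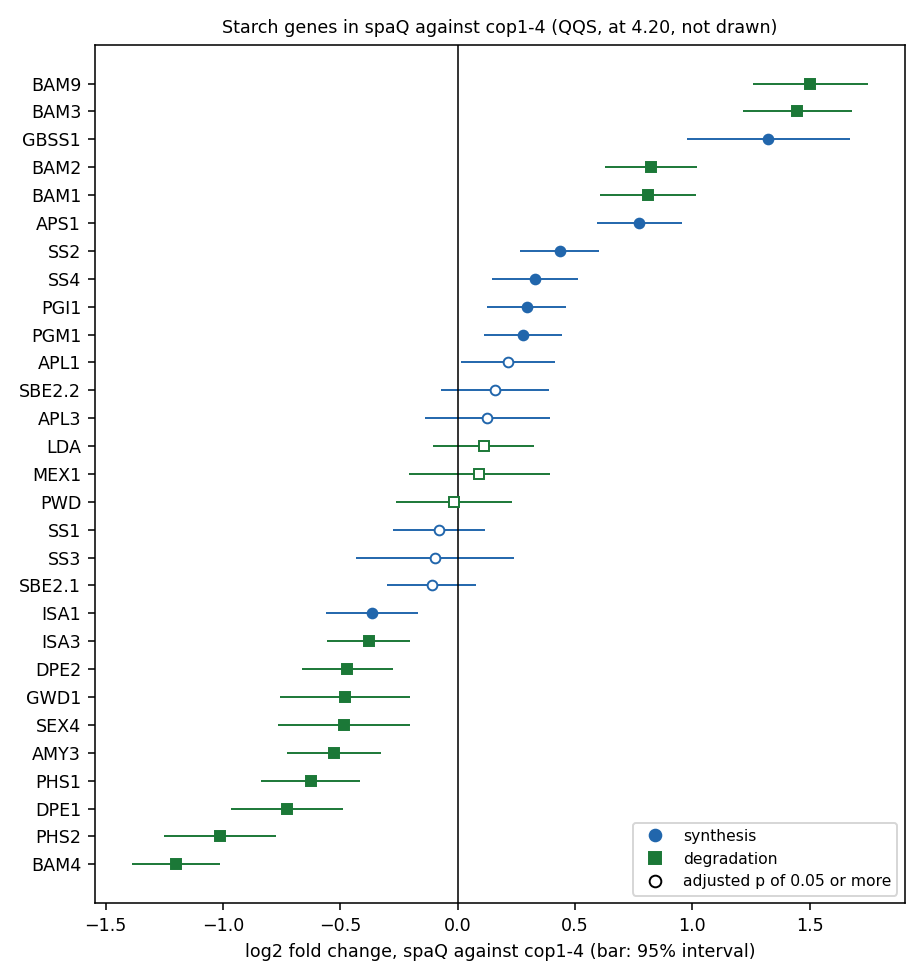
Log2 fold change in spaQ against cop1-4 for the 29 synthesis (circles) and degradation (squares) genes, ordered by value, with 95% intervals as bars and open symbols for genes not called. BAM9, BAM3, the synthesis gene GBSS1, BAM2 and BAM1 are at the upper end and BAM4, PHS2, DPE1 and PHS1 at the lower end.

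Per kb of exon, summed synthesis transcripts exceeded summed degradation transcripts in the mutants. The reverse held in Col-0 by a small margin, with all 16 degradation genes counted. The 13 synthesis genes together had 607, 653 and 618 CPM per kb in spaQ, 563, 493 and 466 CPM per kb in cop1-4 and 178, 195 and 175 CPM per kb in Col-0. The 16 degradation genes had 499, 520 and 507 CPM per kb in spaQ, 439, 406 and 371 CPM per kb in cop1-4 and 184, 214 and 182 CPM per kb in Col-0. In each mutant library the synthesis sum per kb was the larger, and in each Col-0 library the degradation sum was. For cop1-4 this rested on the division by length. In plain CPM the cop1-4 sums averaged 1216 for synthesis and 1219 for degradation, and cop1-4 replicate 2 had 1176 for synthesis and 1234 for degradation. The ratio of degradation to synthesis was 0.796 to 0.822 in spaQ, 0.780 to 0.823 in cop1-4 and 1.03 to 1.10 in Col-0. Without BAM3 and BAM9 it was 0.433 to 0.446 in spaQ, 0.5998 to 0.676 in cop1-4 and 0.806 to 0.881 in Col-0. Synthesis was then the larger sum in Col-0 too. Without BAM3 alone the Col-0 ratio stayed at 1.03 to 1.09, so the reversal in Col-0 depended on counting BAM9. These sums are descriptions of transcripts over chosen genes, and no test was made of them.

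**Figure D5:**
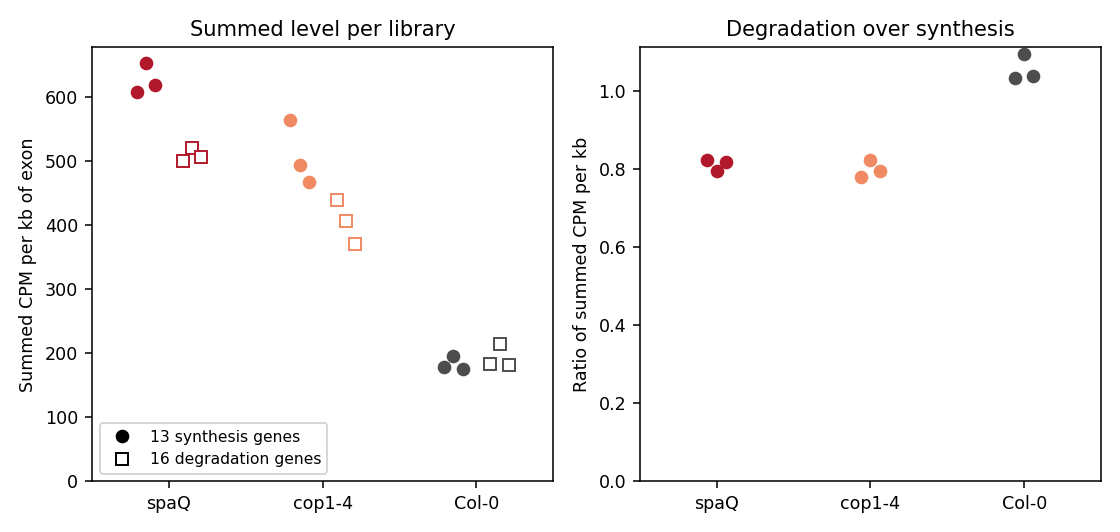
Left, summed CPM per kb of exon of the 13 synthesis genes (filled circles) and the 16 degradation genes (open squares) in each library, and right, the ratio of the sums, for the 3 libraries of each genotype. With all 16 degradation genes counted, the ratio lies near 0.8 in all mutant libraries and above 1 in all Col-0 libraries.

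The order of the genes by level per kb differed between genotypes. In spaQ the leading genes were BAM9 (178 ± 2.63 CPM per kb), APS1 (150 ± 8.07) and APL1 (129 ± 11.7). In cop1-4 they were APL1 (111 ± 5.77 CPM per kb), APS1 (87.7 ± 8.37) and SS1 (65.9 ± 8.46), the last close to BAM9 and GWD1 within its SD. In Col-0 PGI1 led with 43.3 ± 1.70 CPM per kb, before BAM9 at 39.7 ± 1.20 and BAM1 at 27.3 ± 3.70, the last within its SD of APS1 at 24.5 ± 0.585 (SD, n = 3 each). At the other end, BAM3 was the lowest of the 30 genes in Col-0 with 0.774 ± 0.137 CPM per kb. SEX4 was lowest in spaQ (2.45 ± 0.232) and QQS in cop1-4 (0.937 ± 0.0848).

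QQS (AT3G30720) differed most between the mutants among the 30 genes. It encodes a small protein found only in A. thaliana, and plants with less QQS transcript are known to hold more leaf starch. QQS had 12.7, 12.1 and 10.8 CPM in spaQ, 0.652, 0.582 and 0.697 CPM in cop1-4 and 6.07, 6.03 and 5.10 CPM in Col-0. The libraries of the 3 genotypes did not overlap. QQS rose 2.07-fold in spaQ (log2 1.05, SE 0.12, edgeR adjusted p = 1.16e-06) and was 8.89-fold lower in cop1-4 (log2 -3.15, SE 0.17, edgeR adjusted p = 3.44e-10). The cop1-4 level rested on 50 reads over 3 libraries. Between the mutants QQS differed by 4.20 on the log2 scale (SE 0.17), and 27 of 20779 genes had a larger log2 fold change in spaQ against cop1-4. These directions held under all the alternatives tried, with values of 0.67 to 1.11 in spaQ and -3.47 to -3.08 in cop1-4 against Col-0.

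Beyond the 30 genes, 30 further genes connected with starch were examined, covering other isoforms, granule proteins, transporters and cytosolic enzymes. Of these, 29 passed the filter, and BAM5, with 5 reads over all libraries, did not. In spaQ against Col-0, 18 were called higher and 7 lower, 86.2% of those tested, beside 71.6% of all genes (35.5% higher and 36.1% lower). In cop1-4 against Col-0, 17 were called higher and 6 lower, 79.3% of those tested, beside 62.1% of all genes (31.8% higher and 30.3% lower). ESV1, which protects the granule from early breakdown, had 93.8, 103 and 105 CPM in spaQ, 130, 120 and 113 CPM in cop1-4 and 9.26, 9.26 and 10.01 CPM in Col-0, log2 fold changes of 3.40 in spaQ and 3.67 in cop1-4. PII1, a partner of SS4 in granule initiation, rose by 1.94 in spaQ and 1.54 in cop1-4, and BE1, a gene of branching enzyme type, by 2.02 in spaQ and 1.36 in cop1-4. APS2, the minor small subunit gene of ADP-glucose pyrophosphorylase, fell by 1.93 in spaQ and by 1.52 in cop1-4, with 16 reads in spaQ, 19 in cop1-4 and 73 in Col-0 over 3 libraries each. The beta-amylase gene BAM6 was called higher in both mutants from few reads, 35 in spaQ, 27 in cop1-4 and 3 in Col-0 over 3 libraries each, and a gene on the other strand covers 18.1% of its exons.

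In spaQ against cop1-4, 14 of the 29 further genes were called higher and 4 lower, beside 47.5% of all genes (24.0% higher and 23.5% lower). The largest values among the genes called were those of GWD2 (-1.26), the gene of a dikinase outside the plastid that averaged 0.837 ± 0.0621 CPM in spaQ and 1.99 ± 0.704 CPM in cop1-4, the cytosolic isomerase gene PGI2 (0.71), BE1 (0.66) and the SEX4-like gene LSF1 (0.57). LSF1 shares 13.8% of its exon length with the gene CA1 on the same strand, so part of its value is uncertain. The list median was 0.71 in spaQ against Col-0, 0.52 in cop1-4 against Col-0 and 0.32 in spaQ against cop1-4.

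The authors' deposited tables of regulated genes list genes that changed at least 2-fold, all with an FDR (adjusted p-value) below 0.05. In the authors' deposited table for spaQ, 18 of the 30 genes appear, 17 higher and 1 lower, and the table for cop1-4 lists 16, 14 higher and 2 lower. The calls made here at 2-fold or more were 17 in spaQ and 16 in cop1-4, all of them in the authors' deposited tables, beside 33.6% of all genes tested in spaQ and 24.7% in cop1-4. The 1 further gene in the authors' deposited table for spaQ was APL3, which in the authors' deposited table fell by 1.0009, just past the 2-fold limit, and here by 0.997, just short of it. The values in the authors' deposited tables differed from those computed here by at most 0.0492 on the log2 scale.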

How the data were processed

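Counts: the authors deposited raw read counts per gene for 9 libraries, and the tools listed in the submitters' processing notes, all without a version, are HTSeq, TopHat, Bowtie2, DESeq2 and FastQC, with TAIR10 as build. How strand was treated in counting is not given. The authors also deposited a table per mutant with log2 fold changes and FDR values (adjusted p-values). Only genes past 2-fold and with an FDR below 0.05 are listed, and the tool is not stated. Of 33655 features, 0 named no gene and 7726 were at 0 in every library. Counts were tested with edgeR 4.0.16 (R 4.3.3): filterByExpr, TMM and the quasi-likelihood test with 1 coefficient per genotype, fitted to all 9 libraries together (20779 genes, 6 residual degrees of freedom), Benjamini-Hochberg adjustment over all genes, threshold 0.05. The SE came from the fold change and its F statistic, and 95% intervals from the SE and the test's degrees of freedom. Alternatives were RLE scaling, library totals, no filter, DESeq2 1.42.0, the 6 libraries of a pair, a replicate block and leaving out libraries. Exon lengths, overlaps and upstream sequences came from the RefSeq TAIR10.1 annotation, whose nuclear chromosomes carry the TAIR10 coordinates; the lengths may differ from the counted models. The pipeline was tested on simulated data. The members and gene lists were chosen with earlier results of these data known. All 30 members could be named. Of the further starch genes, the 4 largest called changes per comparison, genes near 0 and the large subunit genes APL2 and APL4 were named.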

Additional observations from a re-analysis of the deposited data

Results flagged for a closer look

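QQS was called higher in spaQ and lower in cop1-4, and the difference between the mutants was itself called at 4.20 on the log2 scale (edgeR adjusted p = 1.87e-10), with 3 of 3 spaQ libraries above every cop1-4 library. PHS1 was called lower in spaQ and higher in cop1-4, and the direct comparison of spaQ with cop1-4 gave -0.63 (edgeR adjusted p = 0.000106), with 3 of 3 spaQ libraries below every cop1-4 library. The call of PHS1 against Col-0 was less steady than the difference between the mutants, since the call against Col-0 was lost when any 1 of 5 libraries was left out, while the direct difference ran from -0.71 to -0.58 over all leave-outs.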

How the results depend on the processing

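Counts of calls in 3 comparisons were recomputed under 16 alternatives, 384 values in all, of which 372 lay within 1.5 times the reported count. Library totals gave 2 degradation genes lower in cop1-4 and 5 lower in spaQ, and over all genes 4080 higher and 10227 lower in cop1-4 and 4760 higher in spaQ. Leaving out single libraries gave 1 to 3 degradation genes lower in spaQ, with 1 wherever the PHS1 call was lost. Leaving out both Col-0 replicate 2 and cop1-4 replicate 1, chosen after seeing the data, gave 0 degradation genes lower in cop1-4 and 1 in spaQ. Of 1440 fold changes of the 30 genes, 1395 kept direction and call. With library totals the sign turned for MEX1 in cop1-4 (-0.23) and for ISA1 (-0.079), ISA3 (-0.014) and MEX1 (-0.19) in spaQ against Col-0. Leaving out libraries turned the sign of values that were not called. Against Col-0, PWD ran from -0.22 to 0.015 in spaQ and from -0.21 to 0.030 in cop1-4, PHS2 from -0.099 to 0.077 in spaQ and MEX1 from -0.052 to 0.20 in cop1-4. In spaQ against cop1-4, APL3 ran from -0.0033 to 0.20, SS1 from -0.15 to 0.030, SS3 from -0.23 to 0.16 and PWD from -0.11 to 0.058. With both libraries left out, LDA was called higher in spaQ than in cop1-4 (0.23). The cause of these changes was not tested. Correlations of deviations between same-numbered libraries ran from -0.149 to 0.163, so the numbers are not taken as pairs, and a replicate block gave 12 synthesis genes higher in each mutant and 10 degradation genes higher in spaQ and 13 in cop1-4, and changed the call of none of the 30 genes. Depth limits QQS in cop1-4, and BAM5, BAM6 and APS2, which rest on few reads.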

Other observations

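Within pairs of related enzymes, the balance of transcripts per kb of exon differed between the genotypes. The ratio of APL3 to APL1, both large subunit genes of ADP-glucose pyrophosphorylase, averaged 0.0229 ± 0.00479 in spaQ, 0.0241 ± 0.00131 in cop1-4 and 0.372 ± 0.0475 in Col-0 (SD, n = 3 each). APS1 transcripts stood at 1.09 to 1.201 times the sum of APL1 and APL3 in spaQ, 0.733 to 0.802 times in cop1-4 and 1.07 to 1.1997 times in Col-0. This sum leaves out the large subunit genes APL2 and APL4. APL2 averaged 3.18 CPM per kb in spaQ, 3.16 in cop1-4 and 3.83 in Col-0, and APL4 averaged 0.836 in spaQ, 0.997 in cop1-4 and 1.77 in Col-0. With them the ratio would fall most in Col-0, so the closeness of Col-0 to spaQ depends on this choice. The ratio of SBE2.1 to SBE2.2 was 0.321 to 0.350 in spaQ, 0.364 to 0.437 in cop1-4 and 0.866 to 0.939 in Col-0.

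Among the 5 synthase genes, GBSS1 made up 9.55% to 11.5% of the summed level per kb in spaQ, 4.32% to 5.36% in cop1-4 and 3.21% to 4.23% in Col-0. SS1 made up 42.0% to 44.0% in spaQ, 51.1% to 51.6% in cop1-4 and 32.8% to 35.7% in Col-0. For the disproportionating enzymes, the ratio of cytosolic DPE2 to plastid DPE1 was 2.80 to 2.94 in spaQ, 2.18 to 2.59 in cop1-4 and 1.12 to 1.32 in Col-0. For the phosphorylases, the ratio of plastid PHS1 to cytosolic PHS2 was 1.54 to 1.71 in spaQ, 1.11 to 1.34 in cop1-4 and 1.81 to 1.88 in Col-0. These ratios describe levels and were not tested.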
